A study of Rattus norvegicus with 35 samples.

Results

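The genes of the mitochondrial respiratory chain and of the ATP synthase were examined as a family in rat olfactory epithelium of 3 ages. Members were taken by name from the annotation of the array: every probe whose gene name began with Nduf, with Sdh followed by a to d, with Uqcr, with Cox followed by 4 to 8, or with Atp5, whatever the case and with a trailing "predicted" ignored. This rule, which used no measured value, found 81 of the 41012 probes of the array, carrying 71 of its 35561 gene or transcript names. Of these, 66 named a subunit and 5 did not or were of uncertain identity, and the latter are described apart. When a gene had several probes, the one with the highest mean level represented it. Of the 66 subunit genes, 64 were expressed in all 6 groups of animals and were tested among 23668 transcripts that passed the same condition, and the 2 others, Ndufb6 and Cox6c1, are given by their values.

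All rats were of the Brown Norway strain, untreated and of wild type as far as the labels tell, and the study asked how the RNA profile of the epithelium differs between animals and between ages. The newborn group held 19 pups aged 3 to 5 days, of unknown sex, from 4 litters (litter 1 with 4 pups, litters 2, 3 and 4 with 5 each), with 1 array per pup from one side of the nose. The adult group held 4 males of 9 weeks and the old group 4 males of 22 months housed on site from the age of 3 weeks, with 2 arrays per rat, 1 for each side. These 35 arrays were hybridized with 1 colour on whole-genome arrays of 60-base probes. Age cannot be told apart from sex, since the sex of the pups is not known and all older rats were male, or from the day of scanning, apart from litter 1, which was scanned on the same day as the old rats. Litter 1 was on slide 3 and the old rats on slides 4 and 5, so that within that day age cannot be told apart from slide or litter.

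A level is the log2 of a probe's signal over the median signal of its array, so that a level of 1 is 2-fold that median, and a difference is the difference of such levels. Adult and old rats were represented by the mean of their sides, and newborns by the mean over the means of the 4 litters. SD values are between litter means for newborns and between rats for the other ages, with n = 4 in each case, and p-values are those of limma adjusted by the Benjamini-Hochberg method over all 23668 transcripts, with a gene called higher or lower at an adjusted p under 0.01. These p-values and the SEs rest on the spread between animals within the 6 groups, so that for newborns the spread between litters is not part of them. Levels of different probes depend on the probes themselves and were not ranked as amounts of RNA. Because the tissue was taken whole, fewer cells of a type and less RNA per cell cannot be told apart.

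Complex I (NADH dehydrogenase) and complex II (succinate dehydrogenase) pass electrons to ubiquinone, complex III (the cytochrome bc1 complex) hands them on to cytochrome c, complex IV (cytochrome c oxidase) reduces oxygen, and complex V (the ATP synthase) uses the proton gradient that complexes I, III and IV build. Most of their subunits are encoded in the nucleus, and several small subunits of complex IV exist as paired isoforms, a general one and one typical of heart and skeletal muscle, lung or testis. Olfactory sensory neurons, which are renewed throughout life, spend ATP on the ion gradients and the cyclic AMP signalling of their cilia.

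The label of the tissue was checked against marker genes. Omp, the olfactory marker protein of mature sensory neurons, had a level of 5.03 in newborns, 7.43 in adult rats and 8.14 in old rats and was above background on all 35 arrays. All 9 tested markers of mature sensory neurons were lower in newborns than in adult and than in old rats, and their summed signal, in units of the array median, ranged from 236 to 493 in pups, from 1240 to 1680 in adult rats and from 1890 to 2560 in old rats. Of the 6 markers of immature neurons, 5 were higher in newborns than in adult rats and 6 than in old rats, with sums of 1100 to 2360, 767 to 932 and 653 to 824. All 4 tested markers of sustentacular cells, the supporting cells of the epithelium, were lower in newborns than in adult and in old rats, and the sums of the 6 on the array were 495 to 1270, 1750 to 1960 and 2920 to 3250, without Cyp1a2 in 1 adult rat. The 3 red cell markers had median sums of 456, 64.7 and 197, with every adult rat below every pup and every old rat. Most subunit genes, too, had their lowest mean in adult rats on the array-median scale. Ciliated cell markers summed to 355 to 930, 370 to 503 and 638 to 703. The share of these shifts in the results below was not tested.

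The gene that differed most between ages was Cox8h, current symbol Cox8b, the heart and skeletal muscle isoform of cytochrome c oxidase subunit VIII, and it was measured by 3 probes. Its brightest probe lies at chr1:201207352-201207411 on the minus strand of build rn3, the build of the array annotation, which is the strand of the gene. The other 2 probes were designed from an expressed sequence tag and read the plus strand. The first 30 bases of the bright probe and of one of the others, at chr1:201207391-201207450, are shown because the 21 bases in capitals are the reverse complement of each other, so that these probes read opposite strands of the same stretch.

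Cox8h, gene strand: CCAGCAGGATGGGTCTTATCCcacttggag
Cox8h, opposite strand: GGATAAGACCCATCCTGCTGGaaccatgaa

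A further pair is shown because a very similar sequence was present on the array and gave no signal. Cox6c encodes cytochrome c oxidase subunit VIc, and Cox6c1 has the current RefSeq symbol Cox6c-ps1, that of a pseudogene. Of 48 aligned bases of these probes 41 were identical, and 6 of the 7 mismatches, in capitals, fall in the 30-base stretch printed here, from chr7:71486617-71495146 and chr19:54402994-54403053 on the minus strand of rn3.

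Cox6c: AgagtgCgaagtGatttCagaatGcaaagA
Cox6c1: GgagtgTgaagtAatttTagaatAcaaagG

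The probe of Cox6c was above background on all 35 arrays, with a level of 8.62 in newborns, 8.0 in adult rats and 8.35 in old rats, and that of Cox6c1 on 0 of 35, with values at or near the floor. Cox6c1 was the sole subunit name of the 66 with no signal on any array.

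The promoters of the isoforms of subunit VIII are shown because their genes behaved differently with age. Of the 66 subunit genes 57 had a promoter in the RefSeq table of build GRCr8, and the window is the 250 bases before the start of the gene. Capitals mark 5 motifs searched on both strands, CCGGAAG (the core of ETS factor sites), TGCGCA (core of the nuclear respiratory factor 1 site), AAGATGGC (YY1), TATAAA (the box of promoters named for these letters) and CAGCTG (an E-box of the type that myogenic factors bind). No match overlapped another in the windows printed. The window of Cox8h, at chr1:205408274-205408523 on the minus strand, held 1 TATA box and 2 E-boxes and no CCGGAAG. That of Cox8a, the general isoform, at chr1:213833624-213833873 on the minus strand, held 2 copies of CCGGAAG, here read on the opposite strand, and none of the others.

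Cox8h: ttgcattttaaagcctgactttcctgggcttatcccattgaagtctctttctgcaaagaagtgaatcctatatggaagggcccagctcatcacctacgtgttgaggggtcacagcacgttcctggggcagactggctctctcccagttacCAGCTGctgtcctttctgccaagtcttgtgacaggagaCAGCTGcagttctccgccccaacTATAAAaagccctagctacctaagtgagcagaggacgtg
Cox8a: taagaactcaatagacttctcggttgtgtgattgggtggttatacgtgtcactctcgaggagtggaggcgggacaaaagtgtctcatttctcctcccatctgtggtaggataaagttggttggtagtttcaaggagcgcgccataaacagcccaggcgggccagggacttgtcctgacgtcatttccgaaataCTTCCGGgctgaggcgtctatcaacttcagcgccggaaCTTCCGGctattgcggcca

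Among the 57 subunit promoters, CCGGAAG was found in 16 (28.1%) and TGCGCA in 16 (28.1%), against 7.74% and 6.57% of all 27457 promoters of the table. TATAAA was found in 4 (7.02% against 13.1%), CAGCTG in 7 (12.3% against 11.9%) and AAGATGGC in 2 (3.51% against 1.69%). These letters describe the windows and no more.

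Cox8h was high in adult and old rats and low in pups. Its levels were 7.60, 7.19, 7.24 and 7.57 in the adult rats and 8.87, 9.13, 8.99 and 8.61 in the old rats, and in the 19 pups they ran from 2.83 through a median of 3.99 to 4.51. Every pup was below every adult rat, and every adult rat was below every old rat. The difference was -3.56 between newborn and adult rats (SE 0.15, adjusted p = 6.88e-16), which is 11.8-fold lower in newborns, and -5.06 between newborn and old rats (SE 0.15, adjusted p = 1.48e-18), 33.4-fold lower. Adult rats were 2.84-fold lower than old rats (-1.50, SE 0.20, adjusted p = 6.43e-07). These directions held under each of the 7 ways of scaling the arrays that were run. Within the scan day that litter 1 and the old rats shared, Cox8h was lower in litter 1 by -5.78 (SE 0.20, adjusted p = 7.64e-17). The pups of that contrast were of 1 litter and on another slide than the old rats, here and in the same contrast of other genes below. Litter 1 was itself below litters 2 to 4 by -0.96 (adjusted p = 2.45e-05).

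The probes of the opposite strand were dim. One was at -1.84 in newborns, 0.20 in adult rats and 2.33 in old rats and the other at -2.14, 0.10 and 2.10, and they were above background on 32 and 28 of the 35 arrays. Both were lowest in newborns and highest in old rats, as the bright probe was. They share 40 bases with each other, so that they are not separate evidence.

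The markers of skeletal muscle were higher in newborns than in adult rats, opposite to Cox8h, but lower in adult than in old rats, as Cox8h was. Of 11 on the array 5 were tested, and all 5 were higher in newborns than in adult rats, 3 were higher than in old rats, and 2 were lower in adult than in old rats. The summed signal of the 11 ranged from 56 to 857 in pups, with a median of 211, from 16.5 to 30.1 in adult rats and from 55.9 to 81.5 in old rats. Myh3, the embryonic myosin heavy chain, was higher in newborns than in adult rats by 7.13 (SE 0.53, adjusted p = 1.12e-11), and Acta1, the skeletal muscle actin, and Ckm, the muscle creatine kinase, had levels of 4.0 and 3.48 in newborns but were below background in most adult and old samples (means between -5.08 and -3.27). Of the brown fat markers, Ucp1 was above background on 2 arrays, and Cidea had levels of 0.90 in newborns, 2.29 in old rats and 0.76 in adult rats. The sums of the sensory neuron and of the sustentacular markers given above followed the same order of ages as Cox8h. The part of any of these cells in the level of Cox8h was not tested.

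Cox8a did not share this pattern. Its levels were 8.88, 8.81, 8.80 and 8.75 in the adult rats, 9.80, 9.83, 9.75 and 9.89 in the old rats and 9.25 to 9.91 (median 9.59) in pups. It was higher in newborns than in adult rats by 0.74 (SE 0.07, adjusted p = 1.32e-09) on the array-median scale, a sign that turned to -0.06 under quantile normalization and cyclic loess, and lower than in old rats by -0.27 (adjusted p = 0.00181). The latter call was lost with scan day as a block (adjusted p = 0.0119), litter means as replicates (0.0249), litters 2 to 4 alone (0.0253) and without old rat 20 (0.0114). The ratio of Cox8h to Cox8a within each array does not depend on a common scaling of the array. Its log2 was lower in newborns than in adult rats by -4.30 (SE 0.21) and than in old rats by -4.79 (SE 0.22), and lower in adult than in old rats by -0.50 (SE 0.17). With litter means as replicates the newborn ratios did not overlap those of either age. The exact two-sided permutation test gave p = 0.0286 for each of the newborn contrasts, the smallest p that 4 against 4 allows, and 0.0643 after adjustment over the 18 ratio tests of 6 isoform pairs, and no ratio passed an adjusted p of 0.05.

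**Figure D1:**
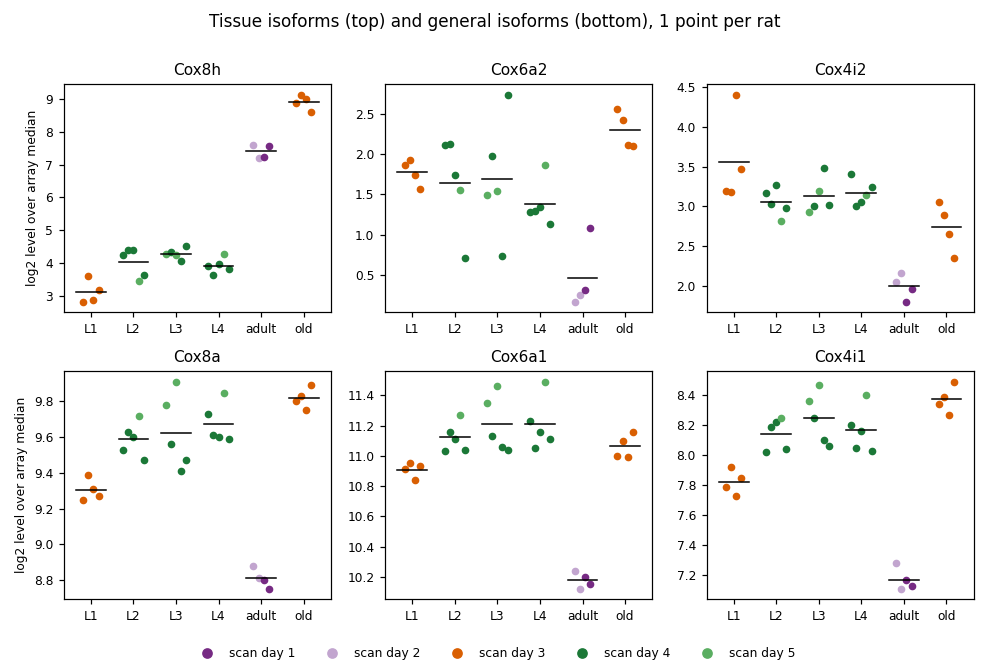
Levels of 3 tissue isoforms of cytochrome c oxidase (top: Cox8h, Cox6a2, Cox4i2) and of their general isoforms (bottom: Cox8a, Cox6a1, Cox4i1) as log2 over the array median (y axis, a separate range in each panel), with 1 point per rat, groups on the x axis, bars at the group mean and colours for the day of scanning. Cox8h lies between 2.83 and 4.51 in pups, 7.19 and 7.60 in adult rats and 8.61 and 9.13 in old rats; the newborn to adult difference of Cox8a changes sign under quantile normalization and cyclic loess, and that of Cox6a1 under cyclic loess, whereas those of the other 4 genes did not under the scalings run.

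Cox6a2, the heart and skeletal muscle isoform of subunit VIa, was lowest in the adult rats. Its levels were 0.17, 0.25, 0.32 and 1.09 in adult rats, 2.56, 2.42, 2.11 and 2.10 in old rats and 0.71 to 2.74 with a median of 1.57 in pups. Adult and old rats did not overlap, and pups overlapped both. It was higher in newborns than in adult rats by 1.17 (SE 0.24, adjusted p = 0.000142) and lower in adult than in old rats by -1.84 (SE 0.31, adjusted p = 2.31e-05), and the difference of newborns from old rats, -0.67, did not pass the threshold (adjusted p = 0.0174). Its general counterpart Cox6a1 was at 11.11 in newborns, 10.18 in adult rats and 11.06 in old rats. On the array-median scale Cox6a1 was higher in newborns than in adult rats by 0.93 (adjusted p = 4.53e-11), and under cyclic loess that difference was -0.04. The ratio of Cox6a2 to Cox6a1 differed by 0.23 between newborn and adult rats (SE 0.26, p = 0.457, exact permutation test) and by -0.95 between adult and old rats (SE 0.26, p = 0.0286, adjusted 0.0643, exact permutation test).

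Cox4i2, the isoform of subunit IV that is typical of lung and induced by low oxygen, was higher in pups than in adult rats. Levels were 2.05, 2.16, 1.80 and 1.96 in adult rats, 3.06, 2.89, 2.65 and 2.35 in old rats and 2.81 to 4.41 with a median of 3.17 in pups, so that every pup was above every adult rat while pups and old rats overlapped. The differences were 1.23 from adult rats (SE 0.15, adjusted p = 1.17e-07) and 0.49 from old rats (SE 0.15, adjusted p = 0.00699). The latter call was lost under 12 of 19 other settings (differences of 0.36 to 0.83, adjusted p between 0.0107 and 0.0608), among them quantile normalization and litter means as replicates, and without old rat 19 (0.46, adjusted p = 0.0269) or old rat 20 (0.36, adjusted p = 0.0634). Litter 1 exceeded the old rats of its scan day by 0.83, with an adjusted p of 0.00095 in the fit of all 6 groups and of 0.0264 when they were fitted by themselves. The general isoform Cox4i1 was higher in newborns than in adult rats by 0.92 and lower than in old rats by -0.28 (adjusted p = 3.67e-11 and 0.00166). The call against old rats was lost with scan day as a block (adjusted p = 0.0144), litter means as replicates (0.0336), litters 2 to 4 alone (0.0294) and without old rat 20 (0.0143). The ratio of Cox4i2 to Cox4i1 was higher in newborns than in old rats by 0.77 (SE 0.27, p = 0.0286, adjusted 0.0643, exact permutation test).

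Cox6b2, the testis isoform of subunit VIb, was the member with the clearest excess in newborns over both later ages. It lay at 1.73, 1.75, 1.77 and 1.94 in adult rats, at 1.99, 1.65, 1.51 and 1.92 in old rats and from 1.98 to 3.70 with a median of 3.20 in pups. Pups did not overlap adult rats, and 1 pup of litter 2, at 1.98, lay below the highest old rat. The differences were 1.29 from adult rats (SE 0.19, adjusted p = 1.08e-06) and 1.32 from old rats (SE 0.19, adjusted p = 1.02e-06), and litter 1 exceeded the old rats by 1.33 (SE 0.24, adjusted p = 4.39e-05) within their scan day. The spermatid genes Tnp1 and Tnp2 were above background on 0 of 35 arrays and Prm1 on 17. The general isoform of subunit VIb had no probe of certain identity. Cox7a2, the general isoform of subunit VIIa, was higher in newborns than in old rats by 0.59 (SE 0.08, adjusted p = 2.54e-07), but this was the case of litters 2 to 4, and litter 1 differed from the old rats by -0.14 (adjusted p = 0.211). With litter means as replicates the call of Cox7a2 was lost (adjusted p = 0.014 in limma).

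Across the family, most subunit genes had lower levels in adult rats than in pups or old rats on the array-median scale. Of the 64 tested genes 50 were higher in newborns than in adult rats, where 39.6% of all tested transcripts were, and 7 were lower, where 26.3% were. The median difference of the 64 was 0.74, or 0.58 above the median of 0.16 over all transcripts. Between newborn and old rats 14 were higher (27.7% of all transcripts) and 12 lower (31.8%), with a median of 0.01 against -0.04 for all. Pups of a litter share their mother, and with the 4 litter means as the newborn replicates these counts were 1 higher and 7 lower (20.6% and 26.1% of all transcripts). In that fit 44 were higher and 4 lower than in adult rats (34% and 21.8% of all). Between adult and old rats 4 were higher in adult (15.3% of all) and 47 lower (31.7%), with a median of -0.72 against -0.19.

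These shifts depended on how the arrays were scaled. Under quantile normalization the median of all transcripts was -0.03, -0.05 and -0.02 in these 3 comparisons, and the subunit medians were 0.05, -0.02 and -0.12. Under this scaling 25 genes were higher and 19 lower in newborns than in adult rats (31.6% and 35.2% of all transcripts). Between adult and old rats 19 were higher and 24 lower in adult (22.9% and 22.6% of all). The genes called in one direction under each of 7 scalings numbered 24 higher and 7 lower in newborns than in adult rats (27.2% and 24.8% of all transcripts), 13 higher and 12 lower in newborns than in old rats (26.0% and 29.8%), and 4 higher and 22 lower in adult than in old rats (13.7% and 18.1%).

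**Figure D2:**
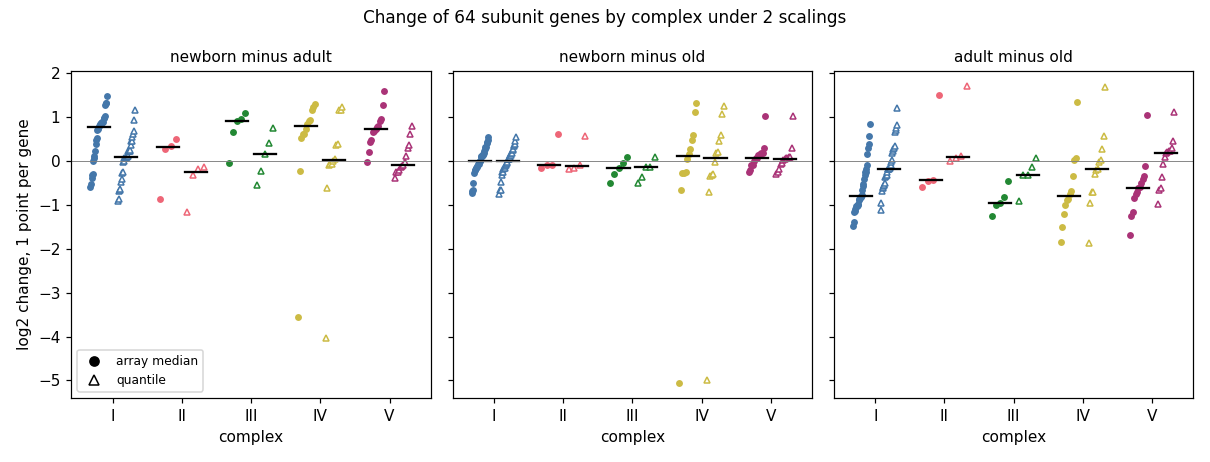
Log2 difference (y axis) of the 64 tested subunit genes in 3 age comparisons by respiratory complex (x axis), 1 point per gene, for scaling to the array median (filled circles) and for quantile normalization (open triangles), with bars at the median of each complex. The median of the 64 genes moves from 0.74 to 0.05 for newborn minus adult and from -0.72 to -0.12 for adult minus old with the scaling, while Cox8h, the lowest point, stays lowest in the comparisons with newborns.

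The size of these shifts went with the brightness of the probe. The tested transcripts were divided by mean level into 10 classes of equal size, and 47 of the 64 genes belonged to the brightest class. In that class, 2367 transcripts in all, the median difference was 0.65 between newborn and adult rats, with 71.9% higher and 7.77% lower, and -0.60 between adult and old rats, with 67.7% lower, whereas in the fourth class the medians were 0.00 and 0.01. The arrays of adult rats also differed in technical measures: the control spots of the bright corners gave intensities of 77100 to 458000 on the adult arrays, 4400 to 9350 on the newborn and 2890 to 4590 on the old, and the array medians were 88.7 to 179, 46 to 96.5 and 40.2 to 59.8. The brightest spot outside the controls gave 648000 to 654000 on the adult arrays, 427000 to 646000 on the newborn and 337000 to 456000 on the old. All adult arrays were read with release 9.5.1.1 of the feature extraction software and all others with 9.5.3.1. Age cannot be told apart from these measures for the adult rats. Their part in the lower adult levels of the subunit genes was not tested.

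**Figure D3:**
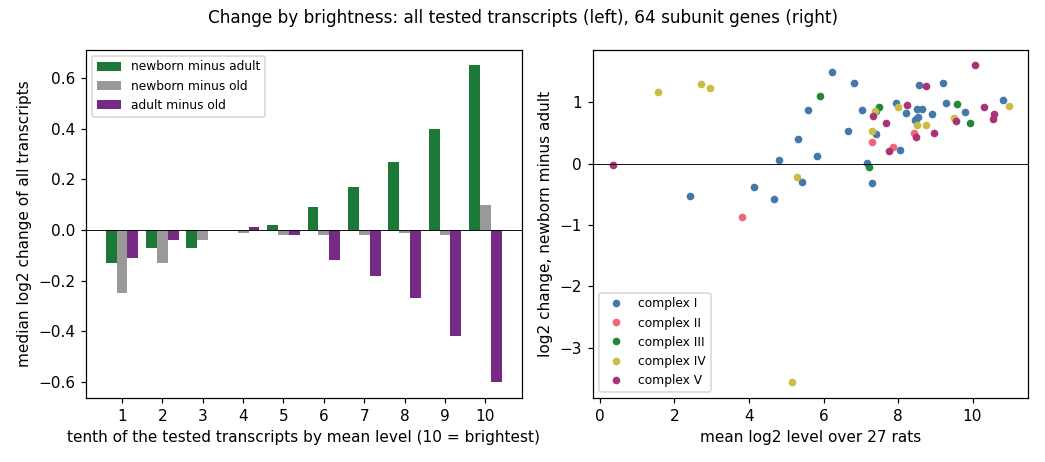
Left, median log2 difference (y axis) of all tested transcripts in each of 10 classes of mean level (x axis, 10 is the brightest) for the 3 age comparisons on the array-median scale; right, newborn minus adult difference (y axis) of the 64 subunit genes against their mean log2 level over 27 rats (x axis), coloured by complex. In the brightest class, which holds 47 of the 64 genes, the medians of all transcripts are 0.65 for newborn minus adult and -0.60 for adult minus old on this scale, and under quantile normalization the medians over all transcripts are -0.03 and -0.02.

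Complex I had 30 tested genes, of which 21 (70%) were higher and 5 (16.7%) lower in newborns than in adult rats. Of all tested transcripts 39.6% were higher and 26.3% lower. Between newborn and old rats 7 were higher and 5 lower (23.3% and 16.7%, below the 27.7% and 31.8% of all). Between adult and old rats 2 were higher and 20 lower (6.67% and 66.7%, against 15.3% and 31.7%). Ndufa2, an accessory subunit of the peripheral arm, had the largest rise of the complex, with 4.87, 4.85, 5.02 and 5.02 in adult rats, 6.23, 6.43, 6.54 and 6.48 in old rats and 6.14 to 6.75 (median 6.44) in pups. Adult rats lay below all pups and all old rats, which overlapped. The difference was 1.49 between newborn and adult rats (SE 0.08, adjusted p = 3.03e-14) and adult rats differed from old rats by -1.48 (SE 0.10, adjusted p = 4.24e-11), and over all scalings it ranged from 1.09 to 1.5 and from -1.48 to -1.07. A further probe of Ndufa2 gave 1.41 and -1.41. Ndufv1, which binds the flavin and NADH, followed the same order with 1.32 and -1.39 (adjusted p = 3.66e-14 and 2.23e-11), as did Ndufs7, an iron-sulphur subunit, with 0.89 and -1.17, but Ndufs7 was also lower in newborns than in old rats (-0.28, adjusted p = 0.000964), a call lost with scan day as a block (adjusted p = 0.0101), litter means as replicates (0.0265) and litters 2 to 4 alone (0.0181).

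Ndufs1, the largest iron-sulphur subunit of complex I, went the other way. Its levels were 5.17, 4.97, 5.10 and 5.00 in adult rats, 5.09, 5.07, 5.00 and 5.45 in old rats and 3.89 to 4.95 with a median of 4.53 in pups. Each pup was below each adult and each old rat. The differences were -0.58 (SE 0.11, adjusted p = 4.98e-05) and -0.68 (SE 0.11, adjusted p = 8.29e-06). Ndufs4, an accessory subunit whose loss in humans is a cause of Leigh syndrome, was lower in newborns by -0.53 than in adult rats and by -0.72 than in old rats (SE 0.12 each, adjusted p = 0.000357 and 1.17e-05), with levels of 2.82, 2.69, 2.89 and 2.67 in adult rats, 3.02, 2.89, 2.72 and 3.19 in old rats and 1.95 to 2.72 (median 2.17) in pups. The highest pup reached the lowest old rat and lay above the lowest adult rat. Within the shared scan day Ndufs4 was lower in litter 1 than in old rats by -0.79 (adjusted p = 0.000108), and Ndufs1 by -0.44, which did not pass the threshold (adjusted p = 0.0106). Ndufs1, Ndufs4 and Cox8h were the 3 subunit genes of 64 that were lower in newborns than in both adult and old rats, and 8 were higher than in both: Ndufa12, Ndufa5, Ndufb4, Ndufb5, Cox4i2, Cox6b2, Cox7a2 and Atp5h. Of these 8, Ndufa12, Ndufb5, Cox4i2 and Cox6b2 kept the call against adult rats under all 7 scalings, whereas Ndufa5, Ndufb4, Cox7a2 and Atp5h were at 0.06, 0.00, 0.04 and 0.12 under quantile normalization. Litter 1 alone differed from the old rats of its scan day by 0.09 for Ndufa12, -0.03 for Ndufa5, -0.13 for Ndufb4, 0.04 for Ndufb5, -0.14 for Cox7a2 and -0.26 for Atp5h. None of these passed. The share of all transcripts that passed both calls was not counted.

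Ndufb6, an accessory subunit of the membrane arm, could not be tested, since the scanner software marked its spot as an outlier on 5 of the 8 adult arrays, among them both arrays of 1 rat. The other adult rats, with 1 usable array each, were at 7.49, 7.48 and 7.61, the old rats at 7.91, 8.0, 7.91 and 8.10, and the pups ran from 7.68 to 8.25 with a median of 8.10. The 3 measured adult rats were below all pups and all old rats.

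Complex II has 4 subunits and all were tested. Sdha, the flavoprotein that oxidizes succinate, was higher in newborns than in adult rats by 0.50 (SE 0.07, adjusted p = 5.85e-07) and lower in adult than in old rats by -0.60 (SE 0.09, adjusted p = 3.8e-06) on the array-median scale, and these differences became -0.18 and 0.01 under quantile normalization. Sdhb, the iron-sulphur subunit, gave 0.35 and -0.45, and -0.14 and 0.06 under quantile normalization. Sdhd, a membrane anchor, gave 0.27 and -0.43 on the array-median scale and -0.32 and 0.12 under quantile normalization. Sdhc, the other anchor, stood apart, with 4.89, 4.78, 4.38 and 4.37 in adult rats, 3.11, 2.94, 3.21 and 3.16 in old rats and 2.64 to 4.62 with a median of 3.91 in pups. Adult rats exceeded the old rats without overlap, by 1.5 (SE 0.14, adjusted p = 2.42e-09), and newborns were lower than adult rats by -0.87 (SE 0.11, adjusted p = 6.3e-08). The pups of litter 1 were lowest, at 2.64 to 2.93. They and the old rats, which shared a scan day, lay below all other animals. The adult rats at 4.89 and 4.78 were scanned on 1 day and those at 4.38 and 4.37 on another. Newborns were higher than old rats by 0.62 (SE 0.11, adjusted p = 1.33e-05), but litter 1 alone differed from them by -0.32 (adjusted p = 0.0483). Age and scan day cannot be told apart in the differences of Sdhc that involve adult rats.

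Complex III had 5 tested genes, of which 4 (80%, against 39.6% of all transcripts) were higher in newborns than in adult rats and 1 did not pass. Between newborn and old rats 0 were higher and 2 lower (27.7% and 31.8% of all). All 5 were lower in adult than in old rats (31.7% of all). Uqcrc1, a core protein, had levels of 4.99, 4.78, 5.02 and 4.99 in adult rats, 6.19, 6.23, 6.05 and 6.33 in old rats and 5.80 to 6.25 (median 6.03) in pups, with the adult rats below all others. Its differences were 1.10 between newborn and adult rats (SE 0.06, adjusted p = 8.07e-14) and, for adult minus old, -1.26 (SE 0.08, adjusted p = 1.35e-11), and they kept their sign under all scalings, with ranges of 0.64 to 1.10 and -1.26 to -0.78. Uqcrfs1, the Rieske iron-sulphur protein, gave 0.92 and -0.81. Uqcrc2, the other core protein, had a newborn to adult difference of -0.05 on the array-median scale, which did not pass (adjusted p = 0.519), and was called lower in newborns under 4 other scalings, from -0.18 with the 75th percentile (adjusted p = 0.00311) to -0.55 under quantile normalization and -0.59 under cyclic loess. It was lower in newborns than in old rats by -0.50 (SE 0.07, adjusted p = 1e-06), with every pup, at 6.84 to 7.36, below every old rat, at 7.57, 7.63, 7.54 and 7.82.

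Complex IV had 12 tested genes, with 10 higher and 1, Cox8h, lower in newborns than in adult rats (83.3% and 8.33%, against 39.6% and 26.3% of all transcripts). Against old rats 4 were higher and 3 lower (33.3% and 25%, near the 27.7% and 31.8% of all). Between adult and old rats 1 was higher and 8 lower (8.33% and 66.7%, against 15.3% and 31.7%). Besides the isoforms above, Cox5b, a zinc-binding subunit, was at 8.81 in newborns (SD 0.13), 8.19 in adult rats (SD 0.09) and 9.06 in old rats (SD 0.11). Its newborn to adult difference of 0.62 (adjusted p = 3.31e-07) became -0.09 under quantile normalization, and a dimmer probe of the gene gave 0.15. That dimmer probe gave 0.44 between adult and old rats, where the brighter one gave -0.87. Cox5a, another nuclear subunit of the oxidase, is described with the scan day.

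Complex V had 13 tested genes, of which 12 (92.3%, against 39.6% of all transcripts) were higher in newborns than in adult rats and 1 did not pass. Against old rats 2 were higher and 2 lower (15.4% each, below the 27.7% and 31.8% of all). Between adult and old rats 11 were lower (84.6%, against 31.7%). Atp5g1, Atp5g2 and Atp5g3 encode the same mature c subunit of the proton-driven ring from separate genes. Atp5g2 had the largest newborn to adult rise of the family on the array-median scale, whereas under quantile normalization its 0.80 was below the 1.23 of Cox6b2, with 4 further genes between them. Its levels were 8.63, 8.62, 8.81 and 8.73 in adult rats, 10.36, 10.44, 10.27 and 10.45 in old rats and 10.09 to 10.57 (median 10.28) in pups. Pups and old rats overlapped and lay above all adult rats. The difference was 1.60 (SE 0.07, adjusted p = 1.22e-15), or 3.03-fold, and -1.69 between adult and old rats (SE 0.09, adjusted p = 2.16e-12), with ranges over the scalings of 0.74 to 1.61 and -1.69 to -0.86. Atp5g1 gave 1.27 and -1.26 (adjusted p = 4.1e-15 and 1.07e-11). The alpha and beta subunits of the head changed less than Atp5g1 and Atp5g2 on the array-median scale. Atp5a1, the alpha subunit, gave 0.44 and -0.71, and Atp5b, the beta subunit, 0.20 and -0.11 (adjusted p = 0.00265 and 0.179). Under quantile normalization the newborn to adult differences of Atp5a1 and Atp5b were -0.24 and -0.38.

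Some subunit genes differed between litters that were scanned on different days. Litter 1 was scanned on day 3 with the old rats, litters 2 to 4 on days 4 and 5 and adult rats on days 1 and 2. The pups of all litters were given as aged 3 to 5 days, without an age for each litter. Between litter 1 and litters 2 to 4, 40 of the 64 genes were lower in litter 1 and 0 higher in limma (3 at an unadjusted p under 0.05). Of all transcripts 24.7% were lower and 7.16% higher, and the median was -0.32 against -0.11 for all. Between litter 1 and the old rats, on one scan day, 2 genes were higher (17.7% of all transcripts) and 22 lower (30.2%). Large differences between these litters were those of Cox5a (-2.21), Atp5g3 (-1.70), Sdhc (-1.25), Ndufs6 (-1.21) and Cox7a2 (-0.98).

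Cox5a was at 4.12, 4.08, 3.40 and 3.20 in litter 1 and between 5.60 and 6.24 in the pups of the other litters. The old rats were at 4.39, 4.08, 4.44 and 4.07 and the adult rats at 5.76, 5.44, 5.48 and 5.66. The animals of day 3, pups and old rats, thus lay below all animals of the other days. The difference of newborns from old rats was 1.11 (SE 0.13, adjusted p = 4.76e-08) with the litters pooled, which did not pass in limma with litter means as replicates (adjusted p = 0.0281). With litter 1 alone it was -0.54, which passed in the fit of all 6 groups (SE 0.17, adjusted p = 0.00691) but not when litter 1 and the old rats were fitted by themselves (adjusted p = 0.0542). Atp5g3 was also split within the adult rats, at 1.38 and 1.55 in the rats scanned on day 2 and -0.77 and -0.33 in those scanned on day 1. Whether the scan day, the litter or age set these levels cannot be told apart for the adult rats and litters 2 to 4.

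**Figure D4:**
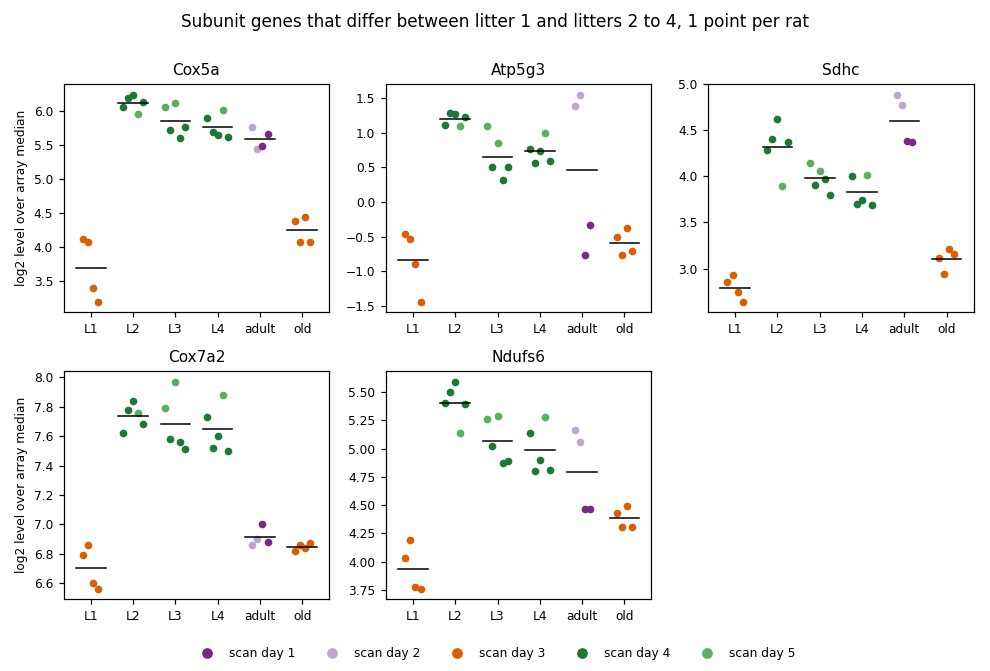
Levels of Cox5a, Atp5g3, Sdhc, Cox7a2 and Ndufs6 as log2 over the array median (y axis, a separate range in each panel), 1 point per rat, by group (x axis) and coloured by the day of scanning, with bars at the group mean. For Cox5a the animals of day 3 (litter 1 at 3.20 to 4.12 and old rats at 4.07 to 4.44) lie below all others (5.44 to 6.24), and Atp5g3 is at 1.38 and 1.55 in adult rats of day 2 and at -0.77 and -0.33 in those of day 1.

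Of the 14 genes called higher in newborns than in old rats, 2, Cox4i2 and Cox6b2, were also called higher in litter 1 than in old rats, and 1, Cox5a, was called lower, in the fit of all 6 groups. With litter 1 and the old rats fitted by themselves Cox6b2 kept its call (adjusted p = 0.000261), while Cox4i2 and Cox5a did not. Of the 12 called lower, 9 were also called lower in litter 1: Ndufs4, Ndufs7, Ndufv3l, Uqcrc2, Uqcrh, Cox4i1, Cox8a, Cox8h and Atp5a1. Litter 1 was part of the newborn mean and the same old rats served both contrasts, so that some agreement was built into these counts. The share of all transcripts that kept such calls in litter 1 was not counted. With litters 2 to 4 alone as the newborn group 53 genes were higher and 4 lower than in adult rats (40.7% and 24.6% of all transcripts), the latter being Ndufs1, Ndufs4, Sdhc and Cox8h. In that setting 20 were higher and 7 lower than in old rats (29.9% and 31% of all).

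Litters 2, 3 and 4 were compared with each other because they were scanned on the same days. Litter largely coincided with slide: the pups scanned on day 4 were on slide 6 in litter 2, slide 7 in litter 3 and slide 8 in litter 4. A difference among these litters thus cannot be told apart from one among slides. Of 64 genes 5 differed among them (10.3% of all transcripts did), and 18 had an unadjusted p under 0.05. All 5 were lowest in litter 2: Ndufa8 was at 6.98 (SD 0.06, n = 5) against 7.23 and 7.29, Ndufs8 at 4.90 against 5.43 and 5.39, Ndufa11 at 5.43 against 5.75 and 5.79, Ndufv3l at 6.76 against 7.24 and 7.21, and Atp5c1 at 7.29 against 7.57 and 7.50 (adjusted p between 0.0014 and 0.00897). The call count was 0 with the slide as a random block in limma, with 14 genes at an unadjusted p under 0.05.

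The spread of subunit genes was smaller than that of all transcripts between animals of one litter or age, and nearer to it between litters. The median SD was 0.07 between the sides of a rat, against 0.133 over all transcripts, 0.145 between pups of a litter against 0.212, and 0.105 between rats of one age, adult or old, against 0.159, and 0.184 between the 4 litter means against 0.202. The widest spread between pups of a litter was found in the tissue isoforms, with SDs of 0.51 for Cox6a2, 0.41 for Cox6b2 and 0.31 for Cox8h and Cox4i2. The subunit probes were bright, with 47 of 64 in the brightest class, and the part of brightness in these SDs was not tested. Pups of litters 2 to 4 scanned on day 5 (n = 4) had subunit medians of 5.47 to 5.58 above the median of all transcripts and the 11 of day 4 had 5.28 to 5.41, without overlap.

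The 5 names apart from the subunits were measured as well. Ndufaf1, an assembly factor of complex I, showed no called difference between newborn and adult rats (-0.20, adjusted p = 0.0486). Cox7a2l, a factor that joins complexes III and IV into supercomplexes, was higher in newborns than in adult rats by 0.56 (adjusted p = 2.07e-08) on the array-median scale, a difference of -0.01 under normexp correction with quantile normalization. Atp5s, now Dmac2l, was lower in newborns by -0.97 than in adult rats and by -0.46 than in old rats (adjusted p = 8.54e-10 and 8.91e-05). Cox4nb, now Emc8, the neighbour of Cox4i1 on the chromosome and part of a membrane protein insertion complex, gave 0.50 from adult rats (adjusted p = 6.92e-06). The probe named Cox6b had levels of -0.12 in newborns, 2.73 in adult rats and 3.52 in old rats, but its accession is described in the array annotation as similar to an uroplakin, so that no subunit can be read from it.

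Other mitochondrial gene lists, chosen with earlier results of these data known, are given beside the subunits on the array-median scale. The shares of all tested transcripts to read them against were 39.6% higher and 26.3% lower in newborns than in adult rats, 27.7% and 31.8% in newborns against old rats, and 15.3% and 31.7% in adult against old rats. Of 64 tested genes of the mitochondrial ribosome, which translates the subunits encoded in the organelle, 54 were higher and 1 lower in newborns than in adult rats, 16 higher and 6 lower than in old rats, and 2 higher and 47 lower in adult than in old rats. Of 20 genes of protein import into mitochondria the counts were 18 and 1, 10 and 2, and 1 and 16. Timm22, the core of the carrier translocase, was higher in newborns by 1.48 than in adult rats and by 0.49 than in old rats (SE 0.05, adjusted p = 4.66e-17 and 1.81e-08). Of 17 assembly and copper delivery factors the counts were 10 and 3, 3 and 3, and 2 and 6, and 17 electron carriers, transporters and other subunits had 9 and 2, then 6 and 4, with 10 lower in adult than in old rats.

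Among 16 regulators of mitochondrial biogenesis 8 were higher and 5 lower in newborns than in adult rats, and 5 higher and 3 lower than in old rats. Several of these counts lie near the shares of all transcripts, 39.6% and 26.3% in the former comparison and 27.7% and 31.8% in the latter. Nrf1, whose product binds the TGCGCA core, was lower in newborns than in adult rats by -0.52 (SE 0.13, adjusted p = 0.00103) and than in old rats by -0.75 (adjusted p = 1.78e-05). The coactivator Ppargc1b was lower in newborns than in old rats by -1.01 (SE 0.09, adjusted p = 8.37e-10), while Ppargc1a passed in neither comparison (-0.25 and -0.42). Gabpa, an ETS factor gene, and Gabpb1, the gene of its partner subunit, were lower in newborns than in adult rats by -0.43 and -0.63 (adjusted p = 0.00185 and 0.000131), whereas Tfam, which packages mitochondrial DNA, was higher by 0.53 (adjusted p = 2.78e-07).

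The lists of neighbouring pathways are read against the same shares of all transcripts, 39.6% higher and 26.3% lower, 27.7% and 31.8%, and 15.3% and 31.7%. Here 20 tested genes of the tricarboxylic acid cycle and pyruvate dehydrogenase had 11 higher and 2 lower in newborns than in adult rats, 8 and 6 than in old rats, and 3 higher and 12 lower in adult than in old rats. Pc, the pyruvate carboxylase that refills the cycle, was lower in newborns than in old rats by -1.32 (SE 0.09, adjusted p = 2.36e-12). Of 22 glycolysis genes the counts were 11 and 5, 5 and 10, and 2 and 15, and Ldha, the A chain of lactate dehydrogenase, was higher in newborns by 1.67 than in adult rats and by 1.03 than in old rats (adjusted p = 3.73e-11 and 2.47e-07). Of 17 fatty acid oxidation genes 12 were higher and 2 lower in newborns than in adult rats and 4 higher and 9 lower than in old rats, with Fabp3, the fatty acid binding protein of heart and muscle, higher in newborns by 3.10 than in adult rats and by 2.17 than in old rats (adjusted p = 2.51e-08 and 7.62e-06). Pgam2, the muscle phosphoglycerate mutase, was at 3.06 in newborns, 1.33 in adult rats and 3.48 in old rats. Both tested uncoupling proteins, Ucp2 and Slc25a27, were higher in newborns than in adult rats, by 0.54 and 0.63 (adjusted p = 0.00299 and 0.00441).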

How the data were processed

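RNA of the olfactory epithelium was labelled in 1 colour and hybridized on 35 Agilent arrays by the authors. The deposited scanner files hold a background-subtracted processed intensity per spot from Agilent Feature Extraction. The deposited value table, on a linear ratio scale, divided each array and then each gene by its median. It was checked against the scanner intensities and used as an alternative. Up to constants for array and probe 99.79% of its probes gave the scanner's values. Control spots and 4189 spot values with outlier marks were left out, and spots of a probe were averaged. Intensities were divided by the array median, after the authors' methods, set to at least 0.01 and taken as log2. The authors further divided by each gene's median.

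A transcript entered the tests when above background (neither saturated nor non-uniform) on at least 3 arrays of each litter and 6 of the 8 arrays of adult and of old rats. The sides of a rat were averaged. Limma 3.58.1 in R 4.3.3 fitted 6 groups (4 litters, adult, old), with newborn as the mean of the litters, and isoform ratios were compared by exact permutation. The fit was tested on simulated data. The study's methods used a t-test, run here as an alternative, as were other scalings, filters, blocks and omission of each animal. Of the 81 probes 48 were matched to RefSeq by accession, 28 by symbol and 5 by synonym.

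Members and gene lists were chosen with earlier results of these data known. Named were isoform pairs, a list of core subunits, the largest called rise and fall without overlap of each complex and comparison, and members not expressed in every group. The number of arrays limits the precision. Single probes, genes of other lists and those with the largest litter differences were also named after their values were seen. An item that the rule would name is not reported here.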

Additional observations from a re-analysis of the deposited data

Results flagged for a closer look

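In 167 sets of 4 or 5 animals checked, 4 held an animal far from the rest of its group, where chance gives about 1 in 20. In litter 4, Cox6a2 was at 1.86 in rat 34 and at 1.13 to 1.34 in the other pups. In adult rats, Cox6a2 was at 1.09 in rat 16 against 0.17 to 0.32, and Uqcrc1 was at 4.78 in rat 14 against 4.99 to 5.02. In old rats, Cox7a2l was at 7.39 in rat 20 against 7.19 to 7.21.

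Litter 1 differed from litters 2 to 4 in 14 of the 27 named genes that were tested, so that the contrast of newborns with either older group differed between these litters (adjusted p under the threshold in limma). Of all tested transcripts 24.7% were lower in litter 1 and 7.16% higher, and some of the 27 had been named for their age differences in these data. All 14 were lower in litter 1, by log2 differences of -2.21 for Cox5a, -1.70 for Atp5g3, -1.25 for Sdhc, -0.98 for Cox7a2 and -0.96 for Cox8h. Smaller differences were found for Sdha (-0.44), Cox4i1, Cox7a2l and Uqcrfs1 (-0.37 each), Sdhb (-0.35), Ndufs7 (-0.34), Cox8a (-0.32), Atp5b (-0.30) and Cox6a1 (-0.27). Litter 1 and the other litters were scanned on different days, and scan day and litter cannot be told apart here.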

How the results depend on the processing

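The 59 calls of named genes gave 1076 values under other settings, of which 979 kept direction and call, 62 kept the direction alone and 35 reversed, and 50 of those that did not keep both fell under quantile, normexp with quantile, or cyclic loess scaling. Cyclic loess and litters 2 to 4 as the only newborns were added after the data had been seen. The cause was not tested for any of these changes. The counts of subunit genes under quantile, normexp with quantile, and loess were 25, 32 and 24 higher and 19, 17 and 20 lower in newborns than in adult rats, 20, 21 and 19 lower in newborns than in old rats, and 19, 15 and 20 higher and 24, 30 and 23 lower in adult than in old rats. The shares of all transcripts, in the same order, were 31.6%, 31.7% and 32.8%, then 35.2%, 34.4% and 33.8%, then 34.2%, 33.4% and 31.6%. For adult against old rats they were 22.9%, 22.5% and 23.6% higher and 22.6%, 23.5% and 21.4% lower. Genes lower in newborns than in adult rats numbered 4 with litter means as replicates, 4 by the methods' t-test and 4 with litters 2 to 4 alone (21.8%, 21.9% and 24.6% of all transcripts). At the unadjusted threshold of the methods that t-test gave 47 higher and 4 lower in newborns than in adult rats, 19 and 13 against old rats and 4 and 46 in adult against old rats, and after Benjamini-Hochberg adjustment 47 and 4, 16 and 12, and 3 and 42. Of all transcripts 33% and 21.9%, 26.8% and 29.5%, and 9.11% and 23.1% passed after adjustment. Against old rats, litter means gave 1 higher and 7 lower, litter 1 alone, fitted with the old rats, 1 and 23, and scan day as a random block and litters 2 to 4 alone 6 and 7 lower. The shares of all transcripts were 20.6% and 26.1% with litter means and 17% and 29.6% with litter 1 alone. Those lower with scan day as a block and with litters 2 to 4 alone were 25.3% and 31%. Genes higher in adult than in old rats numbered 7 with the 75th percentile, with every array as a sample and with rat as a block (19.8%, 21% and 16.3% of all transcripts). The 5 genes that differed among litters 2, 3 and 4 became 11 with the 75th percentile or the median of common transcripts, 8 with quantile, 12 with normexp, 3 with no filter, 8 with scan day as a block or every probe counted, and 0 with slide as a block or those litters fitted alone, where limma gave 14 each at an unadjusted p under 0.05. Reversed differences between newborn and adult rats were, under quantile, -0.24 for Atp5a1, -0.38 for Atp5b, -0.09 for Cox5b, -0.06 for Cox8a, -0.18 for Sdha and -0.14 for Sdhb, under normexp with quantile -0.14 for Atp5a1, -0.32 for Atp5b, -0.27 for Cox5b, -0.02 for Cox7a2, -0.01 for Cox7a2l and -0.40 for Sdhb, and under loess -0.24 for Atp5a1, -0.40 for Atp5b, -0.09 for Cox5b, -0.04 for Cox6a1, 0.00 for Cox7a2, -0.06 for Cox8a, -0.17 for Sdha and -0.19 for Sdhb. Between adult and old rats they were, under quantile, 0.45 for Atp5b, 0.09 for Cox7a2l, 0.01 for Sdha, 0.06 for Sdhb and 0.07 for Uqcrc2, under normexp with quantile 0.40 for Atp5b, 0.20 for Cox7a2l, 0.44 for Ndufs1 and 0.30 for Sdhb, and under loess 0.48 for Atp5b, 0.04 for Cox6a1, 0.11 for Cox7a2l, 0.06 for Sdha, 0.09 for Sdhb and 0.08 for Uqcrc2. With litter 1 alone against old rats, Atp5g3 was at -0.25, Cox5a at -0.54, Cox7a2 at -0.14 and Sdhc at -0.32. Under quantile 11 isoform ratios passed, each at an adjusted p of 0.0468 by exact permutation. All 11 had the smallest p that 4 against 4 allows, 0.0286. Their adjusted p thus depends on how many ratios reached that limit and does not tell the ratios apart. For newborns against adult rats, against old rats and adult against old rats, Cox8h over Cox8a gave -3.97, -4.64 and -0.66 and Cox6a2 over Cox6a1 1.15, -0.69 and -1.84, Cox4i2 over Cox4i1 gave 0.78 and 0.77 for the newborn contrasts, and for adult against old rats Cox7a2l over Cox7a2 gave -0.48, Atp5g1 over Atp5g3 -1.77 and Atp5g2 over Atp5g3 -2.09. Without any 1 animal, counts ranged from 48 to 51 higher and 6 to 7 lower in newborns than in adult rats, 11 to 15 and 8 to 14 against old rats, 4 to 6 higher and 46 to 48 lower in adult than in old rats, and 1 to 5 among litters 2, 3 and 4. The lowest came without rat 21 or 25 of litter 2. Of 1593 values of calls without 1 animal, 1584 kept the call, and 9 did not. The correlation within blocks was 0.582 for rat, 0.220 for slide and 0.248 for scan day. No paired analysis was possible because each number names 1 rat of 1 group. Dim probes near the background limit what can be said of Cox6a2, of Atp5g3 (levels of 0.44 in newborns, 0.46 in adult rats and -0.59 in old rats) and of the opposite-strand probes of Cox8h.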
